A study of Homo sapiens with 3 samples.

Results

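Aminopeptidase N (ANPEP), dipeptidyl peptidase 4 (DPP4), sucrase-isomaltase (SI), lactase (LCT), maltase-glucoamylase (MGAM), aminopeptidase A (ENPEP), neprilysin (MME), intestinal alkaline phosphatase (ALPI) and cubilin (CUBN) were followed in single cells of a Caco-2/HT29 co-culture. The 9 genes were taken by symbol from the 33538 genes of the count matrices. No measured value entered that rule, but the members were chosen with earlier results of these data known. Caco-2 and HT29 are human colon carcinoma lines, and Caco-2 is known for forming enterocyte-like cells with a brush border once confluent. Cells of Caco-2 (passage 8) and HT29 (passage 13) were mixed at 9:1, seeded into the apical chamber of 3 Transwells and grown past the 21 days given for full differentiation. Control 1 and control 2 were left untreated, and the third Transwell received 1 ng/ml lipopolysaccharide (LPS) of Escherichia coli apically on day 22 for 24 hours. All 3 were trypsinized on day 23, and 3′ single-cell libraries were made with the 10x Genomics kit. The Transwells shared the 2 starting stocks, so p-values measure the spread between 2 wells, pooled over cell classes where classes are compared. The LPS treatment cannot be told apart from its single library.

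Brush border hydrolases are anchored in the microvilli of absorptive enterocytes and carry out the last steps of digestion at the cell surface. SI, LCT and MGAM split disaccharides and short glucose chains, ANPEP, DPP4, ENPEP and MME trim peptides, and ALPI removes phosphate groups, among them those of bacterial LPS. CUBN has no enzyme activity. It is an endocytic receptor for the intrinsic factor and vitamin B12 complex, which needs amnionless (AMN) to reach the apical surface and is often found with megalin (LRP2). In the gut these genes are known to be gained as cells leave the crypt, under factors such as HNF4A and CDX2.

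The genes lie on 6 chromosomes of GRCh38 by the GENCODE annotation, and each is a protein-coding gene. SI (chr3:164978898-165078496), LCT (chr2:135787850-135837184), ANPEP (chr15:89784895-89815401), DPP4 (chr2:161992245-162074394) and CUBN (chr10:16823966-17129811) are on the minus strand. MGAM (chr7:141907813-142106747), ENPEP (chr4:110365733-110565285), MME (chr3:155024124-155183704) and ALPI (chr2:232456125-232460753) are on the plus strand. The 3′ libraries count transcripts from their 3′ ends and do not read the promoter windows that follow.

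Promoter sequence was taken from RefSeq (GRCh38.p14), which lists 12 transcription starts for 8 of the members. LCT has no entry in that table. The 250 bases upstream of each start were searched on both strands for TTTAT, the core recognized by CDX factors, and for AGATAA, the core recognized by GATA factors. TTTAT stood upstream of SI, MGAM and ENPEP, at 1 start each, against 32.7% of all 35116 starts. AGATAA stood upstream of CUBN, at 1 start, against 9.17%. For both cores, the share of the 12 member starts was below that of all starts. The windows of SI and MGAM are shown because both genes, neighbours in the enzyme family, held TTTAT, and that of CUBN because this gene was the most restricted of the 9 to enterocyte-like cells. Matches are in capitals, read 5′ to 3′ on the gene's strand and ending at the base before the start.
SI (chr3:165078497-165078746, minus strand): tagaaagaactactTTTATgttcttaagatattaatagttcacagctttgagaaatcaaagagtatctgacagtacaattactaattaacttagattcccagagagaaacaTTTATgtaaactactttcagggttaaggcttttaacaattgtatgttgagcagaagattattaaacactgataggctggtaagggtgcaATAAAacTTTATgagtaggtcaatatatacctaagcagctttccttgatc
MGAM (chr7:141995629-141995878, plus strand): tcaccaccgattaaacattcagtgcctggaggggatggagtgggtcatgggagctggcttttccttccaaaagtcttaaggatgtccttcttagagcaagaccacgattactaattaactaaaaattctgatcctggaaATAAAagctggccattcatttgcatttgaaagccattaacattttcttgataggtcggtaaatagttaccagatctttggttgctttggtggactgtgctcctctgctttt
CUBN (chr10:17129812-17130061, minus strand): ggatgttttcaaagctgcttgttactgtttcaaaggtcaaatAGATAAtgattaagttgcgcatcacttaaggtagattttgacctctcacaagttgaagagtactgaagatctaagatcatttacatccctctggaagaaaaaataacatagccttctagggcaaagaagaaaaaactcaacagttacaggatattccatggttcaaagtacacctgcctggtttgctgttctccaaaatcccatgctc
The SI window held 4 matches to TTTAT, that of MGAM held 1, and that of CUBN held 1 match to AGATAA. The ENPEP window, which is not shown, held 2 matches to TTTAT. A match of letters is a description of the window and does not show that a factor binds there.

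After filtering, 14472 cells remained, 4633 in control 1, 4989 in control 2 and 4850 in the LPS library, with medians of 5452, 4101 and 3573 unique molecular identifiers (UMIs) per cell. Levels are given as CPM, the UMIs of a gene per 1000000 UMIs, of the summed cells, with the SD over the 2 controls or, for 1 library, an exact Poisson interval that covers counting error only. CPM compares a gene between cells. The 3′ reads carry 1 UMI per captured transcript, so levels were also set side by side between genes, with the reservation that capture of each 3′ end was not measured. Cells were clustered without the 9 genes or any gene of the lists below, and classes were named from markers: enterocyte-like (ECLC, 1968 cells), transit amplifying-like (TALC, 4088), intestinal stem cell-like (ISCLC, 1146), undifferentiated HT29 (U-HT29, 2341), goblet cell-like (GCLC, 186) and enteroendocrine cell-like cells (EECLC, 255), and fetal genes expressing cells (FGEC, 69). The remaining 4419 cells fell in 6 unnamed clusters. The one led by PAGE4 (321 cells) met GCLC by its markers and was unnamed only through a rule added after clusters had been seen. The rest met no class by these markers. ECLC here is 1 cluster led by APOA4 and FABP2 and is narrower than the populations that the study grouped under that name. Markers of cells that the wells should not hold were not all low. In the 3 libraries CDH5 had 1 UMI, PTPRC 4, COL1A2 50, PDGFRB 66, PECAM1 131 and CD3E 197. CD68 stood at 22.6 to 22.8 CPM and COL1A1 at 7.78 to 10.6 CPM.

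Levels of the 9 genes spanned a wide range. DPP4 led with 13495 UMIs in the 3 libraries, followed by ANPEP with 1765, CUBN with 1262, SI with 997 and ALPI with 834. LCT had 232 UMIs, ENPEP 124, MGAM 98 and MME 6, so the last 3 rest on few molecules. DPP4 stood at 175 CPM in control 1, 168 in control 2 and 204 in the LPS library, and had a UMI in 53.3%, 45.9% and 47.6% of their cells. ANPEP was at 25.9, 21.5 and 22.9 CPM and had a UMI in 12.8%, 8.42% and 7.88% of cells. SI was at 15.6, 11.6 and 12.1 CPM, ALPI at 10.5, 10.2 and 13.3, and LCT at 2.77, 3.56 and 3.05. With every cell thinned to the UMI minimum of control 1, which leaves out 455 cells of control 2 and 754 of the LPS library, ANPEP was found in 5.20%, 4.57% and 4.76% of cells and DPP4 in 29.6%, 29.2% and 33.7%. Apart from MME with its 6 UMIs, CUBN differed most between the controls, with 21.9 CPM (20.3 to 23.7) in control 1 and 11.5 CPM (10.2 to 12.9) in control 2, a ratio of 1.90, and 16.0 CPM in the LPS library. The share of ECLC moved the same way, with 16.7% of cells in control 1, 11.5% in control 2 and 12.7% in the LPS library, and its part in the difference was not tested. The intervals of MGAM and of ENPEP overlapped between all 3 libraries.

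Members were sparse within cells. Of the 14472 cells, 3846 held 1 DPP4 UMI, 2827 held 2 to 4 and 393 held 5 or more, with 23 as the highest. ANPEP was seen as 1 UMI in 1125 cells, as 2 to 4 in 262 and as 5 or more in 8. No cell held more than 4 UMIs of SI or LCT, or more than 2 of MGAM. After thinning, an ECLC cell held on average 0.845 of the 9 genes in control 1, 0.842 in control 2 and 0.998 in the LPS library, against 0.317 to 0.359 for a TALC cell and 0.158 to 0.215 for a U-HT29 cell. This mean was 0.507 to 0.573 for cells of the unnamed clusters, 0.385 to 0.440 for ISCLC and 0.382 to 0.444 for EECLC. It was 0.167 to 0.368 for FGEC and 0.104 to 0.186 for GCLC. Even among ECLC, 30.9% to 40.0% of thinned cells showed none of the 9. For pairs of members within ECLC, the number of cells with both is set beside the product of their shares. ANPEP and DPP4 were together in 46, 34 and 48 thinned cells of control 1, control 2 and the LPS library, where the product of shares gives 40.1, 32.4 and 43.8. ANPEP and CUBN were together in 20, 18 and 21 cells, with products of 21.5, 11.7 and 16.0.

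ECLC stood apart from the HT29 cells of the same wells at 6 of the 7 members that entered the test. These were higher in ECLC than in U-HT29 by edgeR's quasi-likelihood test (Benjamini-Hochberg adjusted p at most 0.05), and none was lower. Among all 12989 genes tested, 53.2% passed that threshold, 25.7% higher and 27.5% lower in ECLC. MGAM and MME were removed by the filter on low counts. LCT and CUBN passed that filter only through their ECLC sums, so entry set their direction in all 3 class comparisons. In other named classes of the controls, LCT had at most 1.26 CPM and CUBN at most 3.14 CPM. Each called member was higher in both controls and also in the LPS library. The fitted fold changes use TMM scaling, which sets the median of all genes near 0. With library totals alone that median is -0.30 to -0.33 on the log2 scale for the 3 class comparisons, and the members' log2 values are lower by about as much.

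Among the peptidases, ANPEP was at 71.9 CPM in control 1 and 83.1 in control 2 in ECLC, against 2.24 and 2.78 in U-HT29. The log2 fold change was 5.21 ± 0.26 (SE; adjusted p = 1.9e-17). DPP4, which also trims incretin hormones, was at 227 and 233 CPM in ECLC and at 72.5 and 95.7 in U-HT29, a log2 fold change of 1.74 ± 0.17 (adjusted p = 1.7e-10). Its difference was thus the smallest of the 6. ENPEP, the aminopeptidase that acts on angiotensin, went the other way in both controls without passing the test, at 0.862 and 0.725 CPM in ECLC against 1.25 and 1.77 in U-HT29 (log2 fold change -0.57 ± 0.76, adjusted p = 0.55).

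Among the disaccharidases, SI was at 30.6 and 26.5 CPM in ECLC of the 2 controls and at 1.25 and 0.505 CPM in U-HT29 (log2 fold change 5.26 ± 0.37, adjusted p = 8.5e-14). LCT had 90 UMIs in ECLC of the controls and none in 1537 U-HT29 cells, where a count of 0 leaves room for at most 0.195% of cells with a UMI. Against a floor of 3 counts over U-HT29 of both controls, LCT in the summed ECLC of both controls was at least 32.3-fold higher. Its level there was 7.75 CPM in control 1 and 19.6 CPM in control 2, and against the same floor the bound was 20.6-fold with control 1 and 52.1-fold with control 2. MGAM had 32 UMIs in ECLC and none in U-HT29 of the controls, at least 11.5-fold higher by the same floor. ALPI was at 25.4 and 29.7 CPM in ECLC against 0.498 and 2.53 in U-HT29, a log2 fold change of 4.43 ± 0.37 (adjusted p = 2.9e-12). The neighbouring genes ALPP and ALPG are close copies of ALPI, and reads that fit more than 1 of them could not be followed in counts. CUBN had the largest fitted difference among members with UMIs in both classes, at 102 and 67.8 CPM against 0.997 and 1.26 (log2 fold change 6.49 ± 0.34, adjusted p = 1.6e-16).

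Free RNA in the droplets can give UMIs in cells that do not express a gene, so the members were set beside 12 markers of ECLC and ISCLC. U-HT29 held between 3.40% and 19.6% of the markers' level in ISCLC, TALC and ECLC together in control 1, and between 1.52% and 11.9% in control 2. The same measure was 7.48% and 10.6% for ANPEP, 6.89% and 3.62% for SI, 3.34% and 8.13% for CUBN, and 0 for LCT and MGAM. None of these values was above the highest marker of its library, which was RNF186 in both controls, so they are not read as expression. In control 2 that limit rested on RNF186 alone. The next marker there, FABP2, was at 7.77%, below ANPEP and CUBN. ALPI was at 3.99% in control 1 and at 20.6% in control 2, above the highest marker there, on 2 and 10 UMIs in U-HT29. DPP4 at 41.4% and 58.3% and ENPEP at 173% and 203% lay above every marker in both controls. DPP4 had 291 and 379 UMIs in U-HT29. ENPEP had only 5 and 7 there, and 12 and 11 in ISCLC, TALC and ECLC together. A U-HT29 cell had a DPP4 UMI in 29.7% of cases in the controls.

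**Figure D1:**
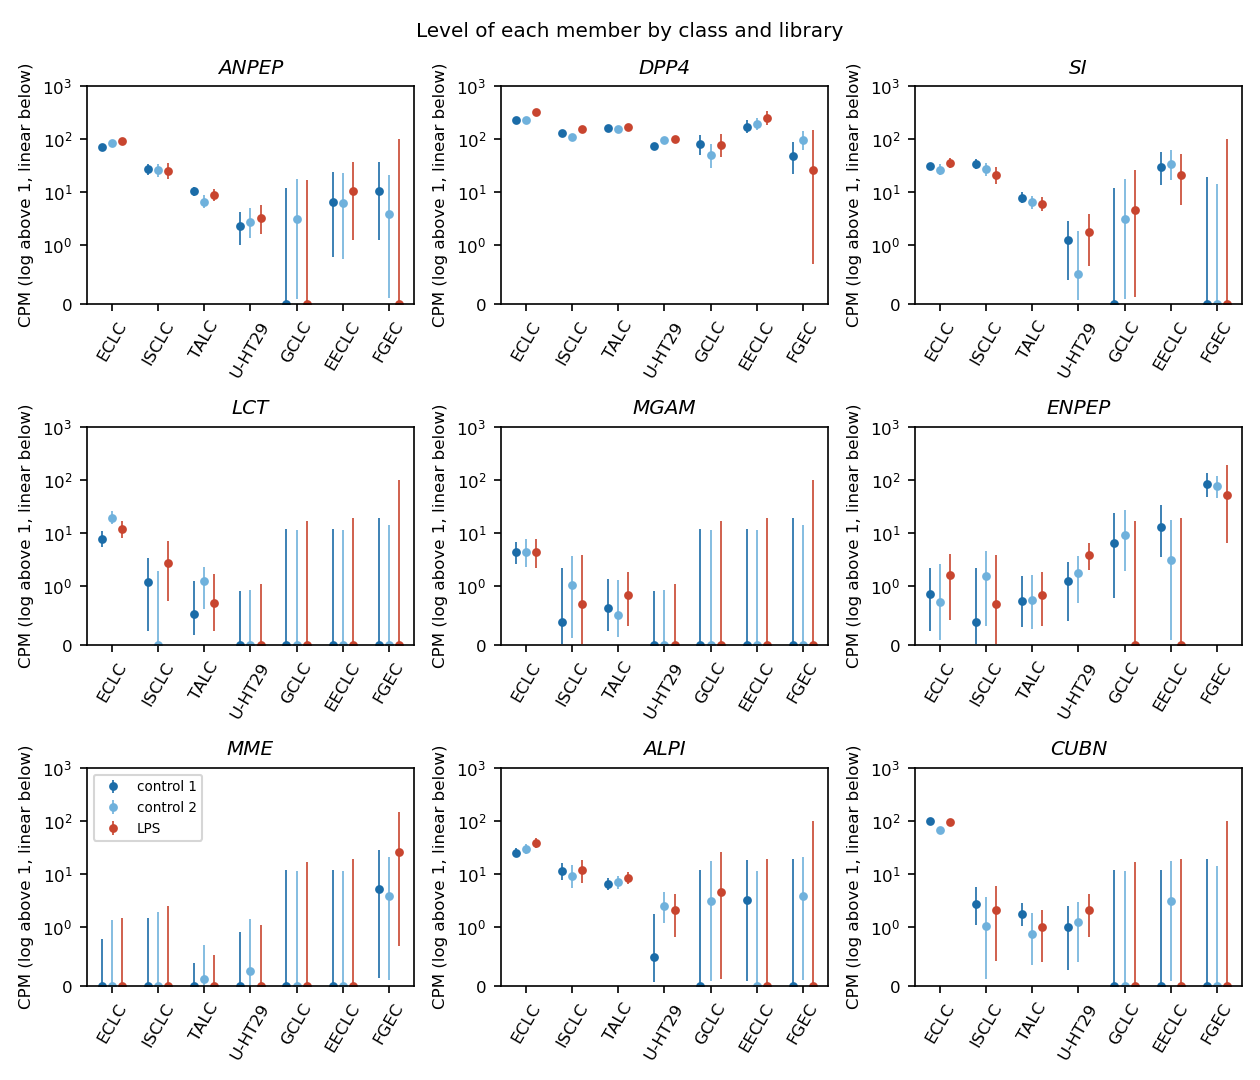
Level of each of the 9 genes in CPM (y axis, logarithmic above 1 and linear below) in the 7 named classes (x axis), with 1 point per library and exact 95% Poisson intervals that cover counting error only. CUBN, LCT, MGAM, ALPI and ANPEP were highest in ECLC in each library, ENPEP and MME were highest in FGEC, and SI stood between 26.5 and 34.5 CPM in ECLC, ISCLC and EECLC of the controls, and at 36.0, 20.7 and 20.5 CPM in those of the LPS library.

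TALC held a cluster of 2337 cells led by DKK1 and MYCN and a cluster of 1751 cells led by the replication gene MCM10 and MYBL2. Against TALC, the same 6 members were higher in ECLC and none was lower, with CUBN and LCT again entering only through ECLC. Of all genes tested 43.6% were called, 23.3% higher and 20.3% lower. CUBN was at 1.80 and 0.884 CPM in TALC, giving a log2 fold change of 6.23 ± 0.29 (adjusted p = 2.8e-17). LCT followed with 4.13 ± 0.50 (adjusted p = 7.7e-08) and ANPEP with 3.48 ± 0.19 (adjusted p = 7.1e-16), the latter from 10.3 and 6.57 CPM in TALC. ALPI at 2.33 ± 0.25 and SI at 2.31 ± 0.22 differed less, from 6.45 and 6.95 CPM and from 7.83 and 6.44 CPM in TALC. DPP4 was at 162 and 154 CPM in TALC, and its log2 fold change was 0.85 ± 0.16 (adjusted p = 6.0e-05). MGAM, which was not tested, was at 4.31 and 4.35 CPM in ECLC against 0.635 and 0.505 in TALC. ENPEP did not differ beyond its error, with a log2 fold change of 0.41 and a 95% interval of -1.08 to 1.90.

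Against the stem cell-like ISCLC, 5 of the 7 tested members were higher in ECLC and none was lower, where 33.9% of all genes tested were called, 19.7% higher and 14.3% lower. CUBN and LCT, which entered only through ECLC, again differed most. Their edgeR log2 fold changes were 5.76 ± 0.36 (adjusted p = 5.8e-14) and 4.55 ± 0.72 (adjusted p = 1.1e-05). ANPEP stood at 26.8 and 25.7 CPM in ISCLC, between TALC and ECLC, and its log2 fold change was 1.92 ± 0.20 (adjusted p = 2.8e-09). ALPI was at 11.4 and 9.26 CPM in ISCLC (1.75 ± 0.29) and DPP4 at 128 and 111 CPM (1.31 ± 0.17), so that DPP4 was lower in ISCLC than in TALC in both controls. ENPEP and SI were the exceptions. ENPEP gave a log2 fold change of 0.22 ± 0.95 (adjusted p = 0.89 by edgeR). SI was at 33.5 and 26.7 CPM in ISCLC against 30.6 and 26.5 in ECLC. That SI difference did not pass edgeR's test (log2 fold change 0.29 ± 0.22, adjusted p = 0.33, 95% interval -0.14 to 0.73). With library totals in place of TMM the sign turned, to -0.08. Clustering of log-normalized counts without integration gave 0.64 (adjusted p = 0.0098 by edgeR). That clustering drew ISCLC more widely, with 1005 and 1188 cells in controls 1 and 2 against 405 and 399 here. SI in ECLC and ISCLC could thus not be ordered. Leaving out control 1 with the LPS library added gave 0.66 (adjusted p = 0.028).

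**Figure D2:**
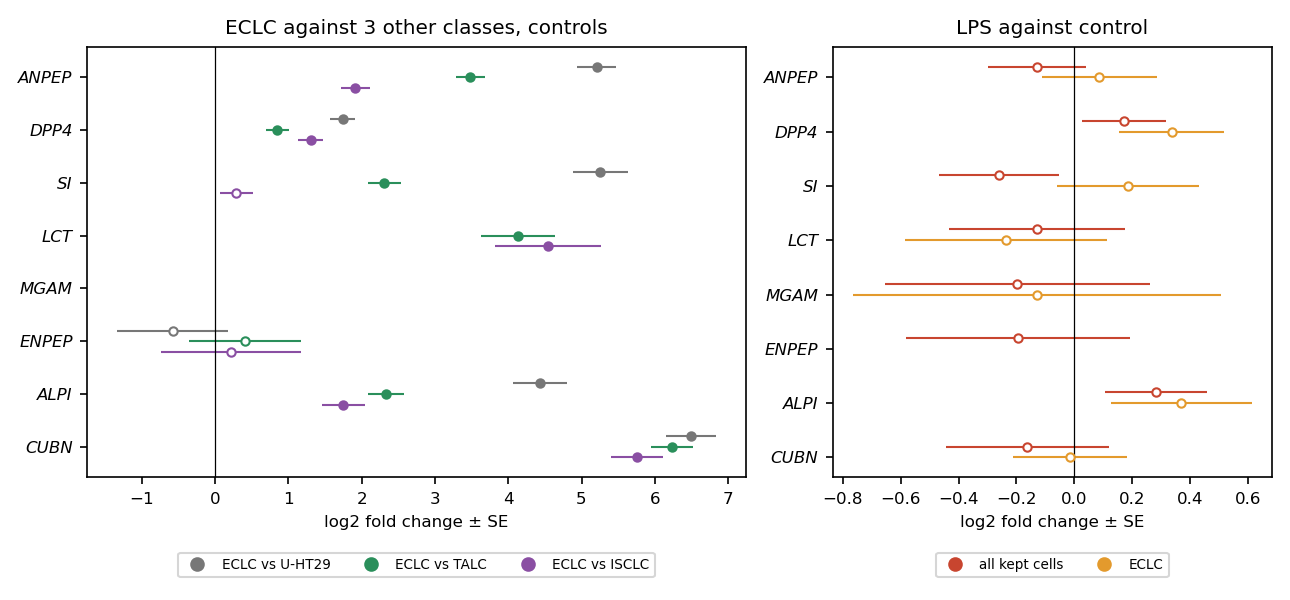
Log2 fold change with its SE (x axis) of each member (y axis) in ECLC against U-HT29, TALC and ISCLC in the controls (left) and in LPS against control (right). Filled points passed an adjusted p of 0.05 in edgeR's quasi-likelihood test and open points did not; members removed by the filter, and LCT against U-HT29, which had no UMI there, have no point.

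Within the classes, single clusters showed where each enzyme peaked. SI reached 72.4 and 64.1 CPM in controls 1 and 2 in the ISCLC cluster led by FGG, SMOC2 and LGR5, the stem cell receptor gene, and 48.2 CPM in the LPS library. It was among the 10 leading genes of that cluster although it was not used to form it. The cluster led by ZNF90 and ITGA5, which has no class name, followed with 48.4 and 39.5 CPM, and the ECLC cluster was lower in both controls. In the LPS library that order turned, with 31.1 CPM in the ZNF90 cluster and 36.0 CPM in ECLC. The other ISCLC clusters were lower still, with means over the controls of 13.2 CPM in the one led by ALB and AFP and 2.04 CPM in the one led by REG3A. SI also stood at 29.5 and 34.5 CPM in EECLC, the cells that express INSM1 and PAX4, on only 20 UMIs in the 2 controls. The EECLC cluster led by CLPS and INSM1 was at 38.8 and 35.6 CPM, above the ECLC cluster in both controls, and at 14.8 CPM in the LPS library. LCT was not seen in any EECLC, GCLC or FGEC cell, and in ISCLC it had 3 UMIs in the controls.

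DPP4 was highest in the EECLC cluster led by SST and GCG, with 454 and 394 CPM in controls 1 and 2 and 536 CPM in the LPS library, in 62 cells. The ZNF90 cluster had 386 and 409 CPM, and 4 of the 20 clusters had a higher mean than ECLC. ANPEP, CUBN, ALPI, LCT and MGAM were highest in ECLC among all 20 clusters, both by the mean of the controls and in the LPS library. The next cluster for ANPEP was again that led by ZNF90, at 55.7 and 32.7 CPM. For CUBN it was the cluster led by GNRH2, at 34.2 and 12.7 CPM, and for LCT the one led by S100A9 and TFF2, at 10.0 and 3.09 CPM. The next cluster was lower than ECLC in both controls for ANPEP and CUBN, whereas LCT in ECLC of control 1, at 7.75 CPM, was below the S100A9 cluster of the same library. MGAM in ECLC of control 1, at 4.31 CPM, was likewise below the unnamed clusters led by PAGE4 (5.80 CPM) and ANKRD37 (5.31 CPM), and the latter had a mean over the controls of 4.26 CPM against 4.33 CPM in ECLC. Cells of the 6 unnamed clusters held 24.2% to 37.1% of the UMIs of ANPEP, DPP4, SI, LCT, MGAM, ALPI and CUBN. These cells were 30.5% of the kept cells and held 28.0% of all UMIs, so the range lay around their own share. ECLC held 71.0% of the CUBN UMIs, 51.7% of those of LCT, 44.8% of ANPEP, 43.9% of MGAM, 35.7% of ALPI, 30.7% of SI and 18.5% of DPP4, in 13.6% of the cells.

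**Figure D3:**
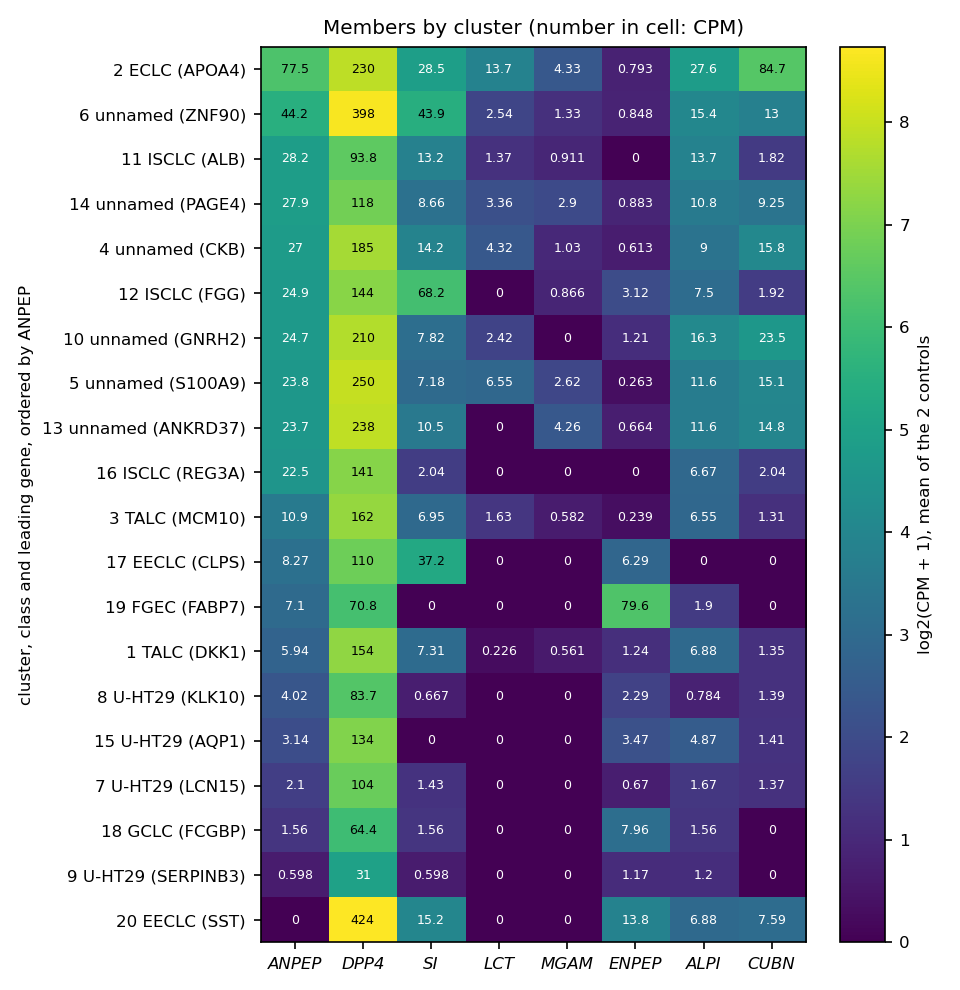
Level of 8 members (x axis) in each of the 20 clusters (y axis, with class and first leading gene, ordered by ANPEP), as the log2 of CPM + 1 for the mean of the 2 controls in colour and as CPM in figures. MME is left out because it had 6 UMIs. SI is highest in cluster 12, ENPEP in cluster 19, DPP4 in cluster 20 and the other 5 in cluster 2.

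ENPEP did not follow the other hydrolases. It was at 83.3 CPM (47.6 to 135) in FGEC of control 1, 75.8 CPM (46.3 to 117) in those of control 2 and 53.1 CPM (6.44 to 192) in the 8 FGEC of the LPS library. The 69 FGEC are 0.477% of the cells and held 30.6% of the ENPEP UMIs, with a UMI in 37.7% of FGEC cells of the controls. No other class exceeded 13.1 CPM in any library. MME had 3 of its 6 UMIs in FGEC, 1 in each library. The leading genes of FGEC were FABP7, PTN, XAGE3 and XAGE2. LRP2, the megalin that takes up ligands together with CUBN, was at 708, 474 and 691 CPM in FGEC against 4.72 to 12.3 in ECLC. FGEC had no UMI of CUBN, SI, LCT or MGAM in any library. ALPG, the germ cell alkaline phosphatase next to ALPI, was at 401, 243 and 531 CPM there, whereas ALPI had 1 UMI.

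Along a score of enterocyte genes, 7 members were highest in the top bin. Cells of ISCLC, TALC and ECLC were ranked within each library by the share of UMIs on 6 enterocyte genes, among them APOA4, APOA1, APOC3, FABP2 and RBP2 and none of them a member, and cut into 5 equal bins. The bins are ranges of a score, not cell types, and 86.6% to 88.5% of the cells in the top bin were ECLC. From the lowest to the highest bin, ANPEP went from 4.77 ± 2.34 to 76.5 ± 6.68 CPM (SD, n = 2 controls) and CUBN from 0.753 ± 0.515 to 83.6 ± 21.9 CPM. CUBN stayed at 7.78 ± 9.46 CPM in the middle bin, where ANPEP had reached 22.0 ± 7.40 CPM. LCT went from 0.334 ± 0.078 to 13.4 ± 6.01 CPM, ALPI from 6.74 ± 2.02 to 28.6 ± 2.88 and SI from 5.51 ± 2.66 to 30.1 ± 2.99. DPP4 ranged between 153 ± 17.6 and 195 ± 6.96 CPM. ENPEP had no bin above 1.45 CPM by the mean of the controls and reached 2.01 CPM in the top bin of the LPS library. In the LPS library the top bin was the highest for ANPEP, DPP4, SI, LCT, MGAM, ALPI and CUBN too, at 85.3 CPM for ANPEP and 91.4 CPM for CUBN. Median depth per cell was lower in the top bin, 5267 UMIs in control 1 and 4010 in control 2, than in the lowest, 6323 and 4676.

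**Figure D4:**
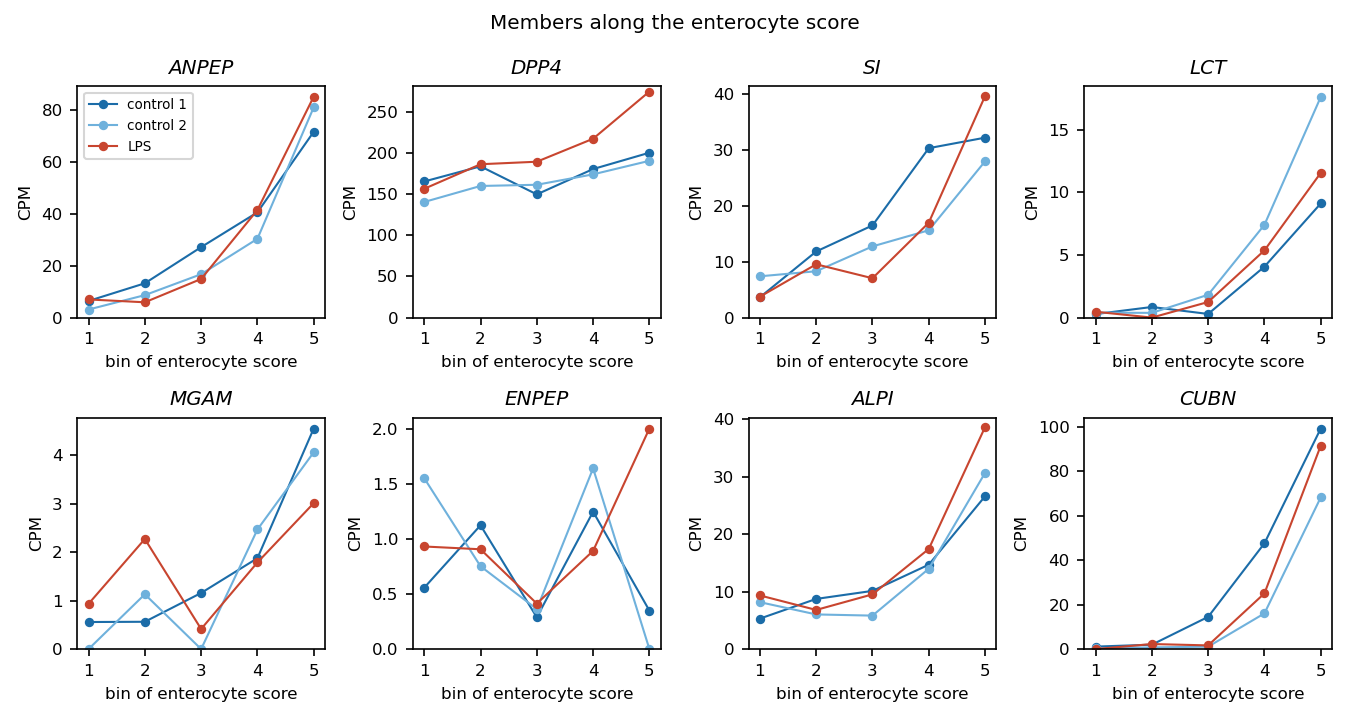
CPM of 8 members (y axis, own scale in each panel, from 0) in 5 equal bins of ISCLC, TALC and ECLC cells ranked by the enterocyte score (x axis), 1 line per library. ANPEP, CUBN, LCT, ALPI and SI end highest in the top bin in every library; DPP4 covers a narrower range and ENPEP shows no order.

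Across 54 cluster by library sums (18 clusters, 10491 genes), the genes most like each member were found by Pearson's r of log2(CPM + 1). The points share libraries and depth, and r is given as a description. For ANPEP they were VTN (r = 0.90), APOB (0.89) and SLC37A4 (0.89), for CUBN TMEM92, C11orf86 and SLC26A3, for LCT ERICH4, S100G and FCGRT, and for ALPI GALM, ERICH4 and C3. For SI they were MALRD1 (r = 0.86), CNKSR3 and ADGRD1, and for DPP4 SEC23A (r = 0.88), EEF2 and C6orf48. No gene was among the top 3 of both SI and LCT. Among the members themselves, r was 0.68 between ANPEP and SI and 0.38 between SI and LCT.

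Other genes of the same functions were examined through lists. Of 21 other brush border hydrolases and paralogs, 11 were tested, and 7 were higher in ECLC than in TALC and none was lower. Among all genes tested, 23.3% were higher and 20.3% lower. The median log2 fold change of the 11 was 3.26, against 0.01 for all genes. A rare listed gene, such as ASAH2 with 73 UMIs in the controls, could pass the filter on low counts only through a class where it was high. Where that class was ECLC, entry set its direction in all 3 class comparisons, as for LCT and CUBN. The counts and the median of this list are thus partly set by entry. The 7 included ENPP7 (4.76), a sphingomyelinase, NAALADL1 (4.62), XPNPEP2 (4.43), ASAH2 (3.28), MEP1A (3.26), the alpha subunit of meprin, and DPEP1 (2.85). Against ISCLC the same 7 were higher and none was lower, where 19.7% of all genes were higher and 14.3% lower. Against U-HT29, where 25.7% of all genes were higher and 27.5% lower, none of the list was lower. DPEP1 did not differ beyond its error there (0.18) and ALPG took its place among the 7. MEP1A was the most abundant of them in ECLC, at 156, 190 and 216 CPM in control 1, control 2 and the LPS library. TMPRSS15, the enteropeptidase that starts the trypsin cascade, and CPO had no UMI in the 3 libraries, and MEP1B, the meprin beta subunit, had 5.

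CUBN and its partner AMN differed in spread over the cells. AMN was at 220, 205 and 230 CPM in ECLC of control 1, control 2 and the LPS library and at 102, 97.8 and 93.6 CPM in TALC, a log2 fold change of 1.40 ± 0.14 (adjusted p = 1.2e-09). CUBN in the same pair of classes gave 6.23. DAB2, an endocytic adaptor, was higher in ECLC than in TALC (2.18, adjusted p = 6.1e-12), and LRP2 was lower (-0.79, adjusted p = 0.035). Of the 9 genes of cubilin partners and vitamin B12 uptake, 8 were tested, and 4 were higher and 2 lower in ECLC than in TALC, where 23.3% of all genes were higher and 20.3% lower. Against U-HT29, 3 were higher and 3 lower, with a median log2 fold change of -0.10, where 25.7% of all genes were higher and 27.5% lower. Against ISCLC 4 were higher and 1 lower, where 19.7% of all genes were higher and 14.3% lower. CD320, the receptor that takes up vitamin B12 from plasma, was lower in ECLC in all 3 class comparisons, with -1.78 against TALC.

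Of 15 intestinal transcription factors, 13 were tested and 8 were higher in ECLC than in TALC, with GATA6 lower, beside 23.3% and 20.3% of all genes. Against U-HT29, 7 were higher and 4 lower, beside 25.7% and 27.5% of all genes. Against ISCLC 7 were higher and none was lower, beside 19.7% and 14.3% of all genes. Against TALC, MAF differed most (4.26, adjusted p = 6.0e-17), at 247, 185 and 265 CPM in ECLC of the 3 libraries. HNF4A (adjusted p = 6.0e-08) and CDX2 (1.36) were higher as well. Of 8 genes of apical delivery, 5 were higher in ECLC than in TALC, among them MYO1A (2.51), the motor of microvilli, and VAMP8 (1.53). None was lower, and 23.3% of all genes were higher in that comparison. Against U-HT29, 4 of the 8 were higher and 3 lower, where 25.7% of all genes were higher and 27.5% lower. Against ISCLC 5 were higher and none was lower, where the shares of all genes were 19.7% and 14.3%.

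LPS was compared with control over all kept cells and within ECLC, with 1 LPS library that was assumed to vary as the controls do. No member passed the test in either comparison. Over all cells 8 members were tested by edgeR, and 0.0558% of 16142 genes were called, 0.0434% higher and 0.0124% lower, with 715 genes at an unadjusted p under 0.05. DPP4 and ALPI lay above both controls in the LPS library, with log2 fold changes of 0.17 ± 0.14 (adjusted p = 0.95) and 0.28 ± 0.18 (adjusted p = 0.94). Within ECLC, 7 members were tested and 0.0646% of 10839 genes were called, 0.0185% higher and 0.0461% lower, with 920 at an unadjusted p under 0.05. DPP4 in ECLC was at 319 CPM (297 to 342) under LPS against 227 (214 to 241) and 233 (215 to 252) in the controls, intervals that do not overlap, and its log2 fold change was 0.34 ± 0.18 (adjusted p = 0.61, 95% interval -0.02 to 0.69). ALPI, the enzyme that dephosphorylates LPS, was at 38.8 CPM (31.5 to 47.3) against 25.4 (21.0 to 30.4) and 29.7 (23.7 to 36.9), with 0.37 ± 0.24 (adjusted p = 0.71). ANPEP was at 89.9 CPM against 71.9 and 83.1 (0.09 ± 0.20), and CUBN at 93.8 CPM lay between the controls (-0.01 ± 0.20). DPP4 was not above both controls in ECLC alone, but also in TALC, ISCLC, U-HT29, EECLC and the unnamed cells. In TALC it was at 171 CPM under LPS against 162 and 154, and in ISCLC at 158 against 128 and 111. In GCLC, DPP4 lay between the controls, and in FGEC below both. Library totals without TMM moved the median of all genes to 0.15 in ECLC, and DPP4 then stood at 0.47. No member had an unadjusted p under 0.05 in either comparison, and DESeq2 called none. DESeq2 called 7 genes over all cells and none in ECLC. No gene of the 4 lists above passed edgeR's test for LPS.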

How the data were processed

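Single-cell 3′ libraries of 2 control Transwells and 1 LPS-treated Transwell were deposited by the authors as matrices of UMI counts per gene and barcode, made with Cell Ranger 3.1.0 per the file headers. No normalization had been applied. The 3 matrices held 5811, 6495 and 6838 barcodes. Cells above the study's minimums of UMIs and genes for control 1, or with at least 1500 UMIs and 700 genes (control 2 and LPS), and at most 20% mitochondrial UMIs were kept. No minimum is stated for the LPS library, so that of control 2 was used. The doublet caller marked 0, 0 and 1 cells by its own threshold, so the highest 6% of scores were removed. Libraries shared 9 to 11 barcodes by pairs, none with identical counts.

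Counts were normalized with sctransform 0.4.2 and integrated with Seurat 5.3.0 (R 4.3.3), and clustered with leidenalg 0.10.2 in scanpy 1.11.5. The 9 genes and all listed genes were left out of the features, and no marker list held a member. Some clusters were divided by a further round of clustering. Clusters were named from markers. One part of the naming rule was added after clusters had been seen: a cluster stayed unnamed where at least 3 leading genes also led clusters of another name and its mean marker fold was low. Names were rebuilt and may differ from those of the study. The members and lists were chosen with earlier results of these data known. Named genes are the members, the 3 most alike genes of each and the listed genes. Leading genes of clusters were named after their values were seen.

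UMIs were summed per class and library, since cells are not replicates, and tested with edgeR 4.0.16 (quasi-likelihood, TMM, filterByExpr, Benjamini-Hochberg over all genes, threshold 0.05). In class comparisons all named classes of both controls entered the same fit, with no term for library, and shared the estimate of the spread. Sums of the same well were treated as independent there. The test of LPS has 1 residual degree of freedom. DESeq2 1.42.0 was an alternative. Intervals are exact Poisson intervals of counts. Both control wells gave every class, so same-numbered sums come from the same well. Their deviations correlated at 0.0046 to 0.24 over 21 class pairs, 6 of them over 0.1. Scripts were tested on simulated data. Some genes of the lists and markers are not reported here.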

Additional observations from a re-analysis of the deposited data

Results flagged for a closer look

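Among ECLC, TALC and ISCLC, the LPS library lay above both controls in 1 class and below both in another for ANPEP and SI. Over all classes this also held for DPP4 and ENPEP. Both lay above the controls in ECLC and below them in FGEC, which had 8 cells in the LPS library. ANPEP in the LPS library was above both controls in ECLC, with a log2 ratio of CPM of 0.21, and at -0.04 in ISCLC, a difference of 0.26. In ISCLC it was at 25.5 CPM under LPS against 26.8 and 25.7 CPM, and edgeR's interaction test gave 0.16 ± 0.38 (adjusted p = 1). SI was at 0.34 in ECLC and -0.25 in TALC, a difference of 0.59. SI in ISCLC was at -0.54, a difference from ECLC of 0.88. The ISCLC cluster with the highest SI, led by FGG and SMOC2, held 173 of the 405 ISCLC cells of control 1, 146 of the 399 of control 2 and 100 of the 342 of the LPS library, and the part of this make-up in the SI value was not tested. These differences of ratios rest on 1 LPS library. In edgeR's interaction test the SI difference between ECLC and ISCLC was 0.77 ± 0.43 (adjusted p = 1), and 0 of 12472 genes were called.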

How the results depend on the processing

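The comparisons of ECLC with other classes kept their direction for the called members, and the number of called members ranged from 5 to 7 against U-HT29, 5 to 7 against TALC and 4 to 7 against ISCLC over 14 settings. No member was called for LPS under any setting run. With library totals in place of TMM, the fitted log2 fold change in ECLC against ISCLC turned to -0.0783 for SI and -0.14 for ENPEP, and that of LPS in ECLC to 0.0109 for MGAM and 0.13 for CUBN. With log normalization without integration, ENPEP turned to -0.36 against ISCLC, and LPS in ECLC to 0.0745 for LCT, 0.0133 for MGAM and 0.0576 for CUBN. That setting also changed which cells made up the classes. With a minimum of 10 CPM in 2 sums, CUBN under LPS in ECLC turned to 0.0016. The cause was not tested. The replicate block, which pairs sums of the same well, changed no call of a member. No paired analysis was possible for LPS because the groups share 1 replicate number. Leaving out a control from the controls alone left no residual degrees of freedom, so those are values with no test. Depth limits MME, MGAM and ENPEP, with 6, 98 and 124 UMIs in all.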
